A study of Mus musculus with 6 samples.

Results

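The heat shock proteins and their co-chaperones were examined in the livers of mice given a single dose of ethanol. The set held every gene whose symbol began with Hspa, Hspb, Hspd, Hspe, Hsph, Hspbp or Hspbap, with Dnaja, Dnajb or Dnajc and a number, with Bag1 to Bag6, or with Cct and a number. Of the 91 symbols that fitted these names, 8 were annotated as pseudogenes and were left out, so that the set had 83 of the 28880 genes of the table. Whole liver RNA was sequenced from 3 ethanol mice and 3 control mice, all male wild type C57BL/6J animals of 6 to 8 weeks labelled as 1 batch. The ethanol mice were fasted for 12 h, received 50% ethanol once by mouth at 6 g/kg, and their livers were taken 24 h later. The control mice received no ethanol, and the sources used here do not say whether they were fasted, so ethanol and fasting cannot be told apart. In bulk liver, fewer cells of a type and less RNA per cell cannot be told apart either.

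Chaperones keep other proteins folded. HSP70 proteins bind exposed hydrophobic stretches of a client in a cycle driven by ATP, J proteins of the DNAJA, DNAJB and DNAJC classes bring clients and start ATP hydrolysis, and exchange factors such as the BAG and HSP110 proteins release ADP and the client. Small heat shock proteins hold unfolded clients without ATP, and the chaperonins HSP60 and CCT fold them inside a barrel. Heat shock factors induce part of these genes through heat shock elements, which are inverted repeats of a 5-base unit, while the unfolded protein response of the endoplasmic reticulum (ER) induces others through ER stress elements.

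To show the DNA that these names refer to, short promoter stretches are given for 7 members whose windows held such letters. They cover the 3-unit element, the ER stress element and the heat-inducible genes Hspb1 and Hspa1b. The windows came from RefSeq on GRCm38.p6 and ran from 250 bases before to 50 bases after an annotated start. They were found for 69 of the 83 members, some with more than 1 start. Both strands were searched for the 3-unit heat shock element GAANNTTCNNGAA, for the 2-unit forms GAANNTTC and TTCNNGAA, each of which lies within the 3-unit form, and for the ER stress element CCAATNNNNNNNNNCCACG. Capitals mark the matched letters, and all stretches read 5′ to 3′ on the strand of the gene.
Hspb1, chr5:135887777-135887854, plus strand: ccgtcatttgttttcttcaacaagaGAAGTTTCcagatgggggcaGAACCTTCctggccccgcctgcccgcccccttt
Hspa1b, chr17:34959310-34959367, minus strand: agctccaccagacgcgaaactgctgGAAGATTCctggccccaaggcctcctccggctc
Hsph1, chr5:149636286-149636394, minus strand: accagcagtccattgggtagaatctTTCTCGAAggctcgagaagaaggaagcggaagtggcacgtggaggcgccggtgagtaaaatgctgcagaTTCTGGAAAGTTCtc
Hspd1, chr1:55088034-55088101, minus strand: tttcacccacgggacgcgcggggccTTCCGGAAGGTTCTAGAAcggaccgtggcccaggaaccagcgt
Dnajb6, chr5:29735827-29735889, plus strand: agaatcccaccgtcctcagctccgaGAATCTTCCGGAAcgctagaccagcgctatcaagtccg
Hspa5, chr2:34772000-34772068, plus strand: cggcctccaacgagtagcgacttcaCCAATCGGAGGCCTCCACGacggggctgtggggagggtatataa
Dnajc3, chr14:118937802-118937870, plus strand: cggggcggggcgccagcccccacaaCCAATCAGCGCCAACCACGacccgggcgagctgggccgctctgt

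The 3-unit letters were found in 4 of the 69 matched members, namely Dnajb6, Hspd1, Hspe1 and Hsph1 (5.8%), and in 0.662% of the 27025 genes with a window. The head-to-head form GAANNTTC was found in 15 members (21.7%) and in 9.04% of all genes, and the tail-to-tail form TTCNNGAA in 8 members (11.6%) and in 9.6% of all genes. Hspa5 and Dnajc3, both ER chaperone genes, were the 2 members with the ER stress element (2.9%, against 0.137% of all genes). Hspd1 and Hspe1, which encode HSP60 and its lid HSP10, are divergent neighbours whose windows shared 285 bases, so that 1 stretch carried the letters of both. The windows of Hspa1a and Hspa1b were identical at 296 of 300 positions, and the stretch printed for Hspa1b was also that of Hspa1a. Hspb8, Bag3, Cct2 and Dnaja1 also held GAANNTTC and Cct5 held TTCNNGAA, and their stretches are not printed. In Hspb8 and Bag3 these letters lie after the annotated start, as do the 3-unit letters of Hsph1, whose printed stretch runs 30 bases past it. A match describes letters in these windows and is not evidence of binding.

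The libraries held 60514417 to 74210869 counts. Scaling set the direction of many of the smaller differences. The trimmed mean of M values (TMM) factors that set the libraries on 1 scale were 0.768 to 0.836 in the ethanol mice and 1.26 to 1.27 in the controls, and they put the median log2 fold change of all 16717 tested genes at -0.04, against -0.71 when libraries were scaled by their total alone. Values called CPM below are counts relative to TMM-scaled library sizes, while FPKM values (fragments per kilobase of transcript, scaled to depth) are the deposited ones, scaled by the library total. The members' share of all counts was 0.401, 0.515 and 0.465% in ethanol mice 1, 2 and 3 and 0.66, 0.693 and 0.675% in control mice 1, 2 and 3. Mitochondrially encoded genes took 8.5 to 9.26% of the counts in the ethanol mice and 5.45 to 7.4% in the controls, and ethanol mouse 3 lay apart from the other ethanol mice on the second principal component (-88.7 against 33.4 and 51.7). The hepatocyte markers summed to 128900 to 132000 CPM in the ethanol mice and 69720 to 80730 in the controls (3 of 8 called higher, none at 0). In FPKM the called Apoa1, Cyp2e1 and Tdo2 were higher without overlap, Alb and Hnf4a overlapped, and Apob, Cps1 and Ttr were lower without overlap. The 5 erythroid markers summed to 475.5 to 708 CPM in the ethanol mice and 157 to 193 in the controls, with 3 of the 4 tested called higher (Hba-a1, Hbb-bs and Hbb-bt). Kupffer markers summed to 66.9 to 90.4 CPM in the ethanol mice and 91.4 to 96.2 in the controls, with none called. Stellate markers summed to 128.7 to 157.9 against 106.9 to 119.5 CPM, also with none called. T cell markers summed to 0.556 to 0.770 against 1.88 to 2.54 CPM, and Cd4 was called lower. Cd4 carried most of the control sum (1.08 to 1.89 CPM). Cd3e overlapped between the groups (-0.21, edgeR adjusted p = 0.893), and Cd3d, Cd8a and Trac were too low to be tested. The part of these differences in the results was not tested.

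Individual chaperone genes changed in both directions, and the set as a whole was called about as often as other genes. Of the 83 members, 77 passed the filter on low counts and were tested, and a gene was called at an adjusted p below 0.05 and a log2 fold change beyond 1 in edgeR's quasi-likelihood test. Among the 77, 7 rose (9.09%, against 10.4% of all genes tested) and 9 fell (11.7%, against 13.8%), and 61 were not called. At the adjusted p alone, 13 were higher and 17 lower, 30 of 77, where 43.0% of all genes passed. The CPM values of the 2 groups did not overlap for 43 members (55.8%), against 59.0% of all genes. The members' log2 fold changes ran from -2.87 to 3.55 with a median of 0.05, and 41 were above 0. The extremes, Hspa12b and Dnajb13, had values near 0 in the lower group and passed the filter through the higher one. With libraries scaled by their total alone the split was 4 higher and 18 lower (5.06 and 32.2% of all genes), and on the FPKM scale 6 members were higher and 54 lower without overlap, where 9.45 and 57.4% of all genes tested were. The 6 untested members, Cct8l1, Dnajb3, Dnajb7, Dnajb8, Dnajc6 and Hspb9, lay at 0 to 0.531 CPM in every library.

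**Figure D1:**
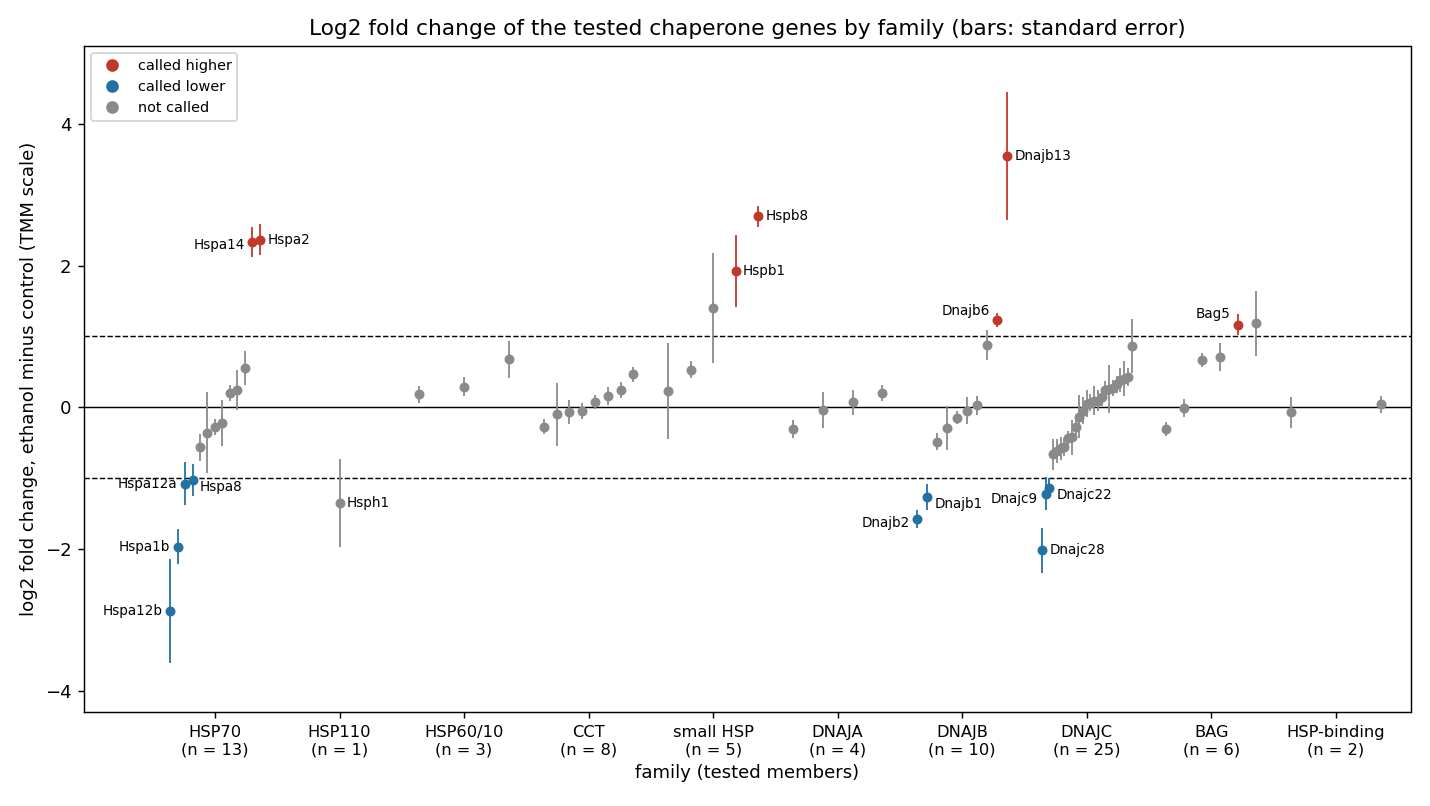
Log2 fold changes (ethanol minus control, TMM scale) of the 77 tested members, grouped by family along the x axis, with their standard errors as bars and dashed lines at -1 and 1. The 7 red members were called higher and the 9 blue ones lower, and no member of the CCT, HSP60/10, DNAJA or HSP-binding families was called. Of all genes tested 10.4% were called higher and 13.8% lower.

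The small heat shock proteins were the family with the highest median log2 fold change, 1.40 over 5 tested members, of which 2 rose and none fell (40%, against 10.4% of all genes that rose and 13.8% that fell). That median is the value of Hspb7, an uncalled gene with 10 to 43 counts in the ethanol mice and 7 to 25 in the controls. Hspb8, which with BAG3 and HSP70 hands misfolded proteins to autophagy, had the lowest adjusted p of all members. It measured 647, 623 and 484 CPM in the ethanol mice and 93.0, 90.2 and 88.2 CPM in the controls. All ethanol mice lay far above all controls, and the controls lay close together. The log2 fold change was 2.69 ± 0.14 (SE, n = 3 per group; 6.47-fold, edgeR adjusted p = 7.3e-05). The same gene stood at 241, 249 and 178 FPKM in the ethanol mice and 56.4, 54.5 and 53.2 FPKM in the controls, so that its groups were apart on both scales. The deposited table places Hspb8 (ENSMUSG00000041548) on the minus strand of chromosome 5 from 116546550 to 116560923.

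Hspb1, which encodes HSP27 and is a classical heat shock factor target, differed between the ethanol mice themselves. Its CPM values were 71.8, 93.0 and 18.6 in ethanol mice 1, 2 and 3 and 15.2, 17.0 and 16.1 in the controls. Ethanol mice 1 and 2 were several times the controls, while ethanol mouse 3 was just above them, and on the FPKM scale it was below them (12.9 against 17.4 to 19.4). The log2 fold change was 1.93 ± 0.51 (3.80-fold, edgeR adjusted p = 0.0203). The call was lost without ethanol mouse 1 (1.80, adjusted p = 0.0618), without ethanol mouse 2 (1.49, 0.0598), without control mouse 1, 2 or 3 (1.89, 1.97 and 1.92, adjusted p = 0.078, 0.068 and 0.0735), and with libraries scaled by their total (1.28, adjusted p = 0.0691). Its promoter stretch above held 2 separate matches to GAANNTTC.

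The other 3 tested small heat shock proteins, Hspb2, Hspb6 and Hspb7, which are known from heart and skeletal muscle, were not called, with log2 fold changes of 0.23 to 1.40. Hspb6 passed the adjusted p but not the fold threshold (0.53, edgeR adjusted p = 0.00928). In FPKM it was lower without overlap (5.04 to 5.29 in the ethanol mice against 5.48 to 5.88 in the controls). The 5 skeletal muscle markers in the table summed to 0.278 to 0.513 CPM in the ethanol mice and 0.158 to 0.394 CPM in the controls, 1 of them, Acta1, being at 0 in all libraries. Smooth muscle markers summed to 9.22 to 14.0 CPM in the ethanol mice and 4.20 to 33.4 CPM in the controls, with none called. The part of these markers was not tested. Together the family's FPKM values summed to 273 ± 67.2 in the ethanol mice and 79.1 ± 1.28 in the controls (SD, n = 3 each), without overlap. Hspb8 and Hspb1 made up nearly all of it.

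The 13 HSP70 genes held 2 that rose (15.4%, against 10.4% of all genes) and 4 that fell (30.8%, against 13.8%), and their median log2 fold change was -0.28. Hspa8, the constitutive HSC70 that serves most housekeeping folding in the cytosol and uncoats clathrin vesicles, was the most abundant member of the set in the control liver. It measured 492, 520 and 882 CPM in ethanol mice 1, 2 and 3 and 1189, 1345 and 1321 CPM in the controls. All ethanol mice were below all controls, ethanol mouse 3 being the nearest to them. The log2 fold change was -1.03 ± 0.23 (2.04-fold lower, edgeR adjusted p = 0.0112). This value lies just past the fold threshold, and the call was lost without ethanol mouse 1 (-0.88, adjusted p = 0.035), without ethanol mouse 2 (-0.91, 0.0346), without control mouse 2 (-0.99, 0.0445) and when a trend with gene length was removed (-0.86, 0.0171). In FPKM it stood at 82.95, 94.2 and 147 in the ethanol mice and 327, 369 and 361 in the controls.

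Hspa1a and Hspa1b encode the stress-inducible HSP70 and are near-identical copies, so that the division of reads between them is uncertain. Hspa1b measured 8.40, 7.08 and 4.40 CPM in the ethanol mice and 22.2, 29.2 and 26.4 CPM in the controls, and it fell by 1.97 ± 0.25 on the log2 scale (edgeR adjusted p = 0.00113). Hspa1a measured 9.79, 6.15 and 3.90 CPM and 6.65, 8.95 and 7.59 CPM, with overlapping groups and no call (-0.22 ± 0.32, adjusted p = 0.6). The 2 copies thus differed in their values while their promoter windows were almost the same. With the counts of both added, the totals were 1046, 809 and 453 in the ethanol mice and 2707, 2909 and 2799 in the controls, and the sum fell by 1.35 ± 0.27 on the log2 scale (edgeR adjusted p = 0.00735). The table puts Hspa1a at chr17:35188166-35191132 and Hspa1b at chr17:35175412-35178214.

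Hspa2, an HSP70 best known from the testis, and Hspa14, a ribosome-associated HSP70, rose. Hspa2 measured 4.66, 5.25 and 6.45 CPM in the ethanol mice and 1.14, 1.06 and 0.959 CPM in the controls, and its log2 fold change was 2.37 ± 0.23 (5.16-fold, edgeR adjusted p = 0.000394). Hspa14 measured 51.2, 45.8 and 77.3 CPM against 12.1, 11.6 and 10.8 CPM, a log2 fold change of 2.34 ± 0.21 (5.05-fold, adjusted p = 0.000321). For both genes every ethanol mouse was more than 3-fold above every control, and the groups stayed apart in FPKM (1.27 to 1.75 against 0.424 to 0.510 for Hspa2, 8.80 to 13.7 against 3.11 to 3.53 for Hspa14). Hspa14 overlaps Msantd7 on the same strand over 8264 bases, and reads of the 2 genes could be confused there. Msantd7 held 75 to 120 counts in the ethanol mice and 34 to 57 in the controls, where Hspa14 held 2800 to 4219 and 882 to 1139. How reads of the shared bases were divided was not tested.

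Hspa12a and Hspa12b, distant HSP70 relatives of which Hspa12b is known from endothelial cells, fell from low levels. Hspa12b had 4, 3 and 20 counts in the ethanol mice and 96, 82 and 119 counts in the controls, with a fitted log2 fold change of -2.87 ± 0.74 (edgeR adjusted p = 0.0181). With ethanol values of 0.049 to 0.367 CPM, it passed the filter on low counts through the control mice. Its call was lost without ethanol mouse 1 (-2.52, adjusted p = 0.0535) and without control mouse 1, 2 or 3 (-2.97, -2.93 and -2.70, adjusted p = 0.0501, 0.0526 and 0.0689). The 5 endothelial markers summed to 65.9 to 123 CPM in the ethanol mice and 72.2 to 85.01 CPM in the controls, with 1 called higher, 1 called lower and none at 0. Lyve1 carried the sum in the ethanol mice (24.2, 33.3 and 69.3 CPM, against 3.39 to 3.68 in the controls), and the other 4 markers summed to 41.7 to 57.9 CPM in the ethanol mice and 68.6 to 81.6 CPM in the controls, without overlap, Kdr being the marker called lower (-1.57). Clec4g was also lower at the adjusted p (-0.998, edgeR adjusted p = 0.00575), whereas Pecam1 (0.29) and Stab2 (-0.24) did not pass it. Their part in the result was not tested. Hspa12a had 32 to 39 counts against 91 to 137 (-1.08 ± 0.30, adjusted p = 0.0251), and this call was lost without any single library other than ethanol mouse 3 (-0.98 to -1.14, adjusted p = 0.057 to 0.0876).

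Hspa5 encodes BiP, the HSP70 of the ER and a marker of the unfolded protein response. Its CPM values were 829.6, 1520 and 1605 in ethanol mice 1, 2 and 3 and 823.3, 941 and 923 in the controls. Ethanol mouse 1 lay within the control range and the other ethanol mice above it, and the gene was not called (0.56 ± 0.24, edgeR adjusted p = 0.102). By total-scaled libraries the value was -0.11, so its direction depended on the scaling. Of the remaining HSP70 genes, Hspa1l, Hspa4, Hspa4l, Hspa9 and Hspa13 were not called and lay between -0.56 and 0.25.

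**Figure D2:**
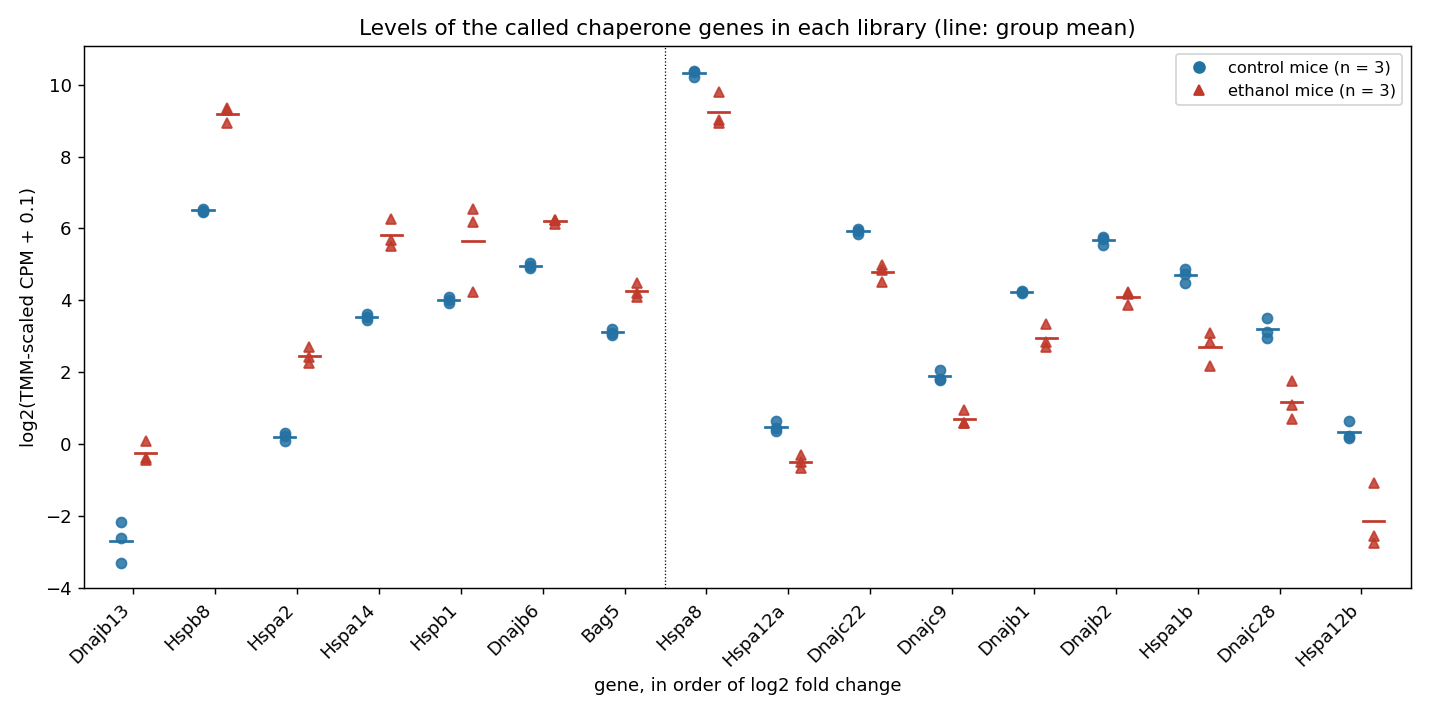
Levels of the 16 called members in each library, as log2(TMM-scaled CPM + 0.1) on the y axis, with control mice as blue circles, ethanol mice as red triangles and a line at each group mean. Genes left of the dotted line were called higher and those right of it lower, and the ethanol values of Hspb1 are the most widely spread among the genes called higher.

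Hsph1, the HSP110 protein that acts as exchange factor of HSP70 and is induced by heat, showed the widest spread of any tested member between the ethanol mice. It measured 18.7, 50.5 and 6.60 CPM in ethanol mice 1, 2 and 3, a 7.65-fold range, and 62.1, 69.0 and 62.2 CPM in the controls, a 1.11-fold range. All ethanol mice were below all controls, yet ethanol mouse 2 was close to them. The log2 fold change was -1.35 ± 0.62 and was not called (edgeR adjusted p = 0.116). Without ethanol mouse 2 it was -2.35 and was called (adjusted p = 0.00978), and it was also called with libraries scaled by their total (-1.98, adjusted p = 0.0347).

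J proteins held both called directions. In the DNAJB class, which mostly pairs with cytosolic HSP70, 2 of 10 tested members rose and 2 fell (20% each, against 10.4 and 13.8% of all genes), with a median of -0.10. Dnajb1, the HSP40 that is induced by heat together with HSP70, measured 6.36, 7.08 and 9.95 CPM in the ethanol mice and 19.0, 18.3 and 18.7 CPM in the controls, and it fell by 1.26 ± 0.18 on the log2 scale (edgeR adjusted p = 0.00197). Dnajb2, which carries ubiquitin-interacting motifs and steers clients to the proteasome, measured 14.6, 17.9 and 18.5 CPM against 53.7, 52.5 and 46.2 CPM, and it fell by 1.58 ± 0.13 (adjusted p = 0.000245). For both genes every ethanol mouse was well below the lowest control.

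Dnajb6, a J protein that suppresses protein aggregation, moved the other way. It measured 70.1, 75.1 and 74.6 CPM in the ethanol mice and 32.6, 30.9 and 29.8 CPM in the controls, with narrow and separate groups (1.24 ± 0.10, 2.36-fold, edgeR adjusted p = 0.000198). With libraries scaled by their total its log2 fold change was 0.57 (adjusted p = 0.00351), which is under the fold threshold, as was the value among genes with a mean FPKM of 5 or more (0.97). Among the 4 members with the 3-unit letters only Dnajb6 was called, where 10.4% of all genes rose and 13.8% fell. Dnajb13, a protein of the radial spokes of cilia, had 38, 39 and 52 counts in the ethanol mice and 6, 0 and 10 in the controls (3.55 ± 0.91, edgeR adjusted p = 0.0177). With controls at 0 to 0.121 CPM, it passed the filter on low counts through the ethanol mice, and its fold rests on values near 0. Its call was lost without control mouse 1 (3.56, adjusted p = 0.0717), and it overlaps Ucp2 on the opposite strand by 305 bases, while Ucp2 held 1102 to 2559 counts.

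In the DNAJC class, the largest and most varied, none of 25 tested members rose and 3 fell (12%, against 13.8% of all genes, of which 10.4% rose), with a median of 0.05. Dnajc22, a J protein anchored in membranes, was the eighth most abundant member in control liver. It measured 28.5, 31.6 and 22.7 CPM in the ethanol mice and 63.5, 61.0 and 57.7 CPM in the controls, and it fell by 1.14 ± 0.14 on the log2 scale (edgeR adjusted p = 0.00106). Dnajc9, a histone chaperone, fell by 1.22 ± 0.23 (1.39 to 1.83 against 3.31 to 4.08 CPM, adjusted p = 0.00557). Dnajc28, a mitochondrial member, fell by 2.02 ± 0.32 (1.52 to 3.26 against 7.65 to 11.3 CPM, adjusted p = 0.00258). Dnajc28 lies wholly inside Gm15964 on the opposite strand, whose counts were 97 to 118 in the ethanol mice and 48 to 74 in the controls, opposite in direction to those of Dnajc28 (93 to 178 and 583 to 1058).

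The 4 DNAJA genes, which encode the general HSP40 co-chaperones, were not called, where 10.4% of all genes rose and 13.8% fell. Their log2 fold changes were -0.30 to 0.20. Dnaja1 measured 173, 222 and 102 CPM in ethanol mice 1, 2 and 3 and 164, 175 and 170 CPM in the controls. Ethanol mouse 2 lay above all controls and ethanol mouse 3 below them, which left a fitted log2 fold change of -0.03 ± 0.26 (edgeR adjusted p = 0.926). Dnaja2 was steadier at 82.5 to 103 CPM against 78.5 to 80.4 CPM (0.20 ± 0.11, edgeR adjusted p = 0.173). With libraries scaled by their total Dnaja2 gave -0.47, so its direction depended on the scaling.

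ER-resident chaperones were followed as a group because alcohol is often discussed with ER stress. None of the 10 ER members was called, where 10.4% of all genes rose and 13.8% fell, and their median log2 fold change was -0.21. At the adjusted p alone 1 was higher and 3 were lower, where 43.0% of all genes passed, and 1 was higher and 5 were lower in CPM without overlap, where 59.0% of all genes did not overlap. Dnajb9, a strong target of the unfolded protein response, measured 32.1, 46.4 and 78.3 CPM in the ethanol mice and 51.5, 70.1 and 69.9 CPM in the controls (-0.29 ± 0.31, edgeR adjusted p = 0.479). Dnajb11 gave 0.03 ± 0.14 (adjusted p = 0.888) and Dnajc3, which inhibits the kinase PERK, gave 0.24 ± 0.13 (adjusted p = 0.17). Hspa5 and Dnajb9 both lay lowest in ethanol mouse 1 and highest in ethanol mouse 3. The 2 members with the letters of the ER stress element, Hspa5 and Dnajc3, were thus both uncalled.

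No chaperonin gene was called, where 10.4% of all genes rose and 13.8% fell. None of the 8 tested CCT subunits, which form the cytosolic ring that folds actin and tubulin, was called, and their log2 fold changes ran from -0.28 to 0.46. Cct2 measured 107.5, 108 and 91.9 CPM in the ethanol mice and 70.3, 76.1 and 76.5 CPM in the controls (0.46 ± 0.11, edgeR adjusted p = 0.0118, under the fold threshold), but in FPKM its ranges overlapped (25.7 to 33.0 against 32.5 to 35.2). Cct5 gave 0.16 ± 0.12 (edgeR adjusted p = 0.331). With libraries scaled by their total Cct2 gave -0.2 and Cct5 -0.5, so their directions depended on the scaling. Mitochondrial Hspd1 measured 397, 415 and 333 CPM against 349, 336 and 324 CPM (0.18 ± 0.12, adjusted p = 0.25), and its divergent neighbour Hspe1 measured 60.9, 63.9 and 47.4 CPM against 48.6, 44.4 and 47.9 CPM (0.29 ± 0.13, adjusted p = 0.121). Both overlapped between groups, with ethanol mouse 3 the lowest of the ethanol mice. Among the 9 mitochondrial members Dnajc28 alone was called (11.1% lower, against 13.8% of all genes, of which 10.4% rose), and the median was 0.18.

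The BAG family of HSP70 exchange factors had a median log2 fold change of 0.69 over 6 members, and 1 of them rose (16.7%, against 10.4% of all genes). Bag5 measured 18.3, 17.1 and 22.3 CPM in the ethanol mice and 9.14, 8.48 and 8.03 CPM in the controls (1.17 ± 0.14, 2.25-fold, edgeR adjusted p = 0.00104), and with libraries scaled by their total it gave 0.50 and was not called. Bag1, the most abundant of the family, gave 0.67 ± 0.10 (69.4 to 79.7 against 46.5 to 48.5 CPM, adjusted p = 0.00203), and Bag3, the heat-inducible partner of Hspb8, gave 0.72 ± 0.20 (40.2 to 62.3 against 24.9 to 32.7 CPM, adjusted p = 0.0242). Both passed the adjusted p but not the fold threshold. These genes set the family's median, and with libraries scaled by their total Bag1 gave 0 and Bag3 0.04. On the FPKM scale Bag5 kept separate groups (5.28 to 6.36 against 3.76 to 4.31), while Bag1 (36.9 to 44.3 against 40.8 to 42.3) and Bag3 (11.7 to 17.4 against 11.4 to 15.1) overlapped. Of the 2 proteins that bind heat shock proteins, Hspbp1 and Hspbap1, neither was called (0.04 and -0.07).

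The heat-inducible genes moved in both directions. Of 9 genes taken as heat-inducible, a list that includes the largely constitutive Hspa8, Hspb1 rose, Hspa8, Hspa1b and Dnajb1 fell, and Bag3, Hspa1a, Hspd1, Hspe1 and Hsph1 were not called. That is 11.1% higher and 33.3% lower, against 10.4 and 13.8% of all genes tested, in a list of few genes. Their median log2 fold change was -0.22, against -0.04 for all genes tested. Without Hspa8, 1 of 8 rose and 2 fell, and the median was -0.02. Hspd1, Hspe1, Hsph1 and Dnajb6, the members with the 3-unit letters, gave 0.18, 0.29, -1.35 and 1.24. Hsf1 itself, the main heat shock factor, measured 9.33, 8.81 and 8.96 CPM in the ethanol mice and 12.2, 12.9 and 14.6 CPM in the controls (-0.55 ± 0.13, edgeR adjusted p = 0.0128, under the fold threshold), and Hsf2 fell by 1.36 ± 0.16 (adjusted p = 0.000811).

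**Figure D3:**
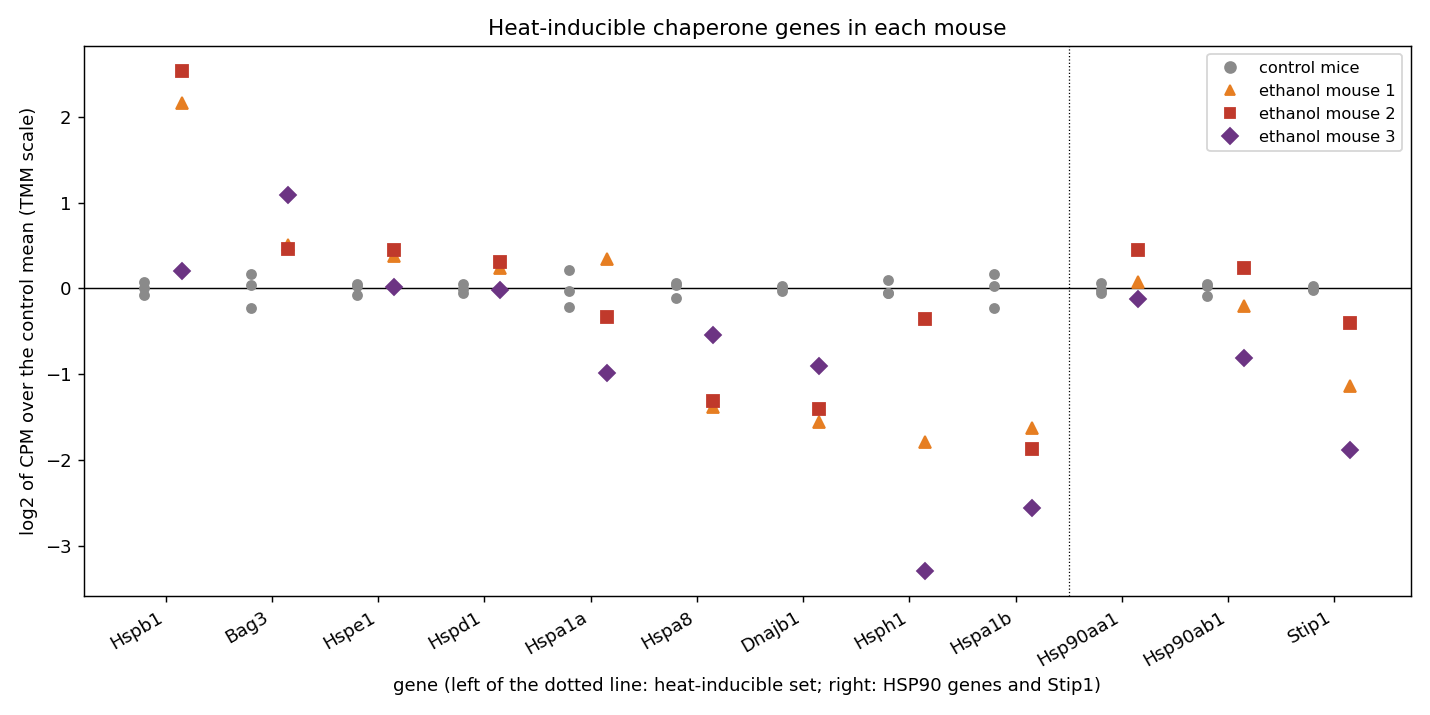
Level of each heat-inducible gene in each mouse relative to the control mean, as the log2 of the CPM ratio on the y axis, with control mice in grey, a separate symbol for each ethanol mouse, and Hsp90aa1, Hsp90ab1 and Stip1 right of the dotted line. The controls cluster near 0 while the ethanol mice spread, with ethanol mouse 2 the highest and ethanol mouse 3 the lowest of the ethanol mice for Hspb1, Hsph1, Hsp90ab1 and Stip1. Hspd1, Hspe1 and Hsp90aa1 ran in the same order. Hspa8, Dnajb1 and Bag3 were instead highest in ethanol mouse 3, and Hspa1a and Hspa1b in ethanol mouse 1.

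The ethanol mice were less alike than the controls, in the chaperone set as in the liver as a whole. Over the 62 members with a mean of at least 5 CPM, the ratio of the highest to the lowest ethanol mouse had a median of 1.33 and that of the controls 1.11, and over the 8899 genes with such a mean the medians were 1.34 and 1.14. For 9 of these members the ethanol ratio was above 2 and for none the control ratio (13.7 and 1.71% of all such genes). They were Hsph1, Hspb1, Hspa1a, Dnajb9, Hspa4l, Dnajc11, Dnaja1, Dnajc28 and Dnajc13, picked by this ratio after their values were seen. Hsph1, Hspb1, Hspa4l and Dnaja1 ran in the same order, with ethanol mouse 2 highest and ethanol mouse 3 lowest, which held for 18 of the 62 members (29.0%) and 24.6% of all such genes. The neutrophil markers summed to 1.88 to 10.6 CPM in the ethanol mice and 0.309 to 0.474 CPM in the controls. The 3 of 7 that were tested were all called higher, with S100a8 and S100a9 highest in ethanol mouse 3. S100a8 and Cxcr2 had 0 to 4 and 0 to 10 counts in the controls and passed the filter through the ethanol mice, which favoured calls in that direction. Elane and Mpo, which mark neutrophil precursors, were at 0 in every ethanol mouse. The part of the neutrophil markers in the spread was not tested.

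Hspb8 took a larger share of the set's transcripts in the ethanol mice than in the controls, and Hspa8 a smaller one. FPKM values, which are set per length and so allow genes to be compared, put Hspa8 first in the controls (352 ± 22.2, SD, n = 3), followed by Hspa5 (250 ± 17.0), Hspd1 (150.1 ± 6.12), Hspa9 (99.9 ± 9.32) and Hspb8 (54.7 ± 1.60). In the ethanol mice Hspa5 (232 ± 77.5) and Hspb8 (223 ± 38.8) came first, their ranges overlapping, followed by Hspa8 (108 ± 34.2) and Hspd1 (107 ± 16.2), which overlapped as well. Within a library the share of the members' summed FPKM does not depend on the scaling of libraries. That of Hspb8 was 20.9, 17.5 and 14.6% in the ethanol mice and 3.48, 3.23 and 3.23% in the controls. That of Hspa8 was 7.21, 6.63 and 12.1% and 20.2, 21.8 and 21.9%. Neither gene's groups overlapped, whereas the shares of Hspd1 (7.40 to 9.45% against 8.74 to 9.66%) and Hspa5 (12.4 to 22.3% against 14.2 to 15.6%) did. The summed FPKM of all members was 1264 ± 141 in the ethanol mice and 1651 ± 34.7 in the controls, without overlap. Unlike the shares, this sum depends on the scaling by library total, and 57.4% of all genes tested were also lower in FPKM without overlap.

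**Figure D4:**
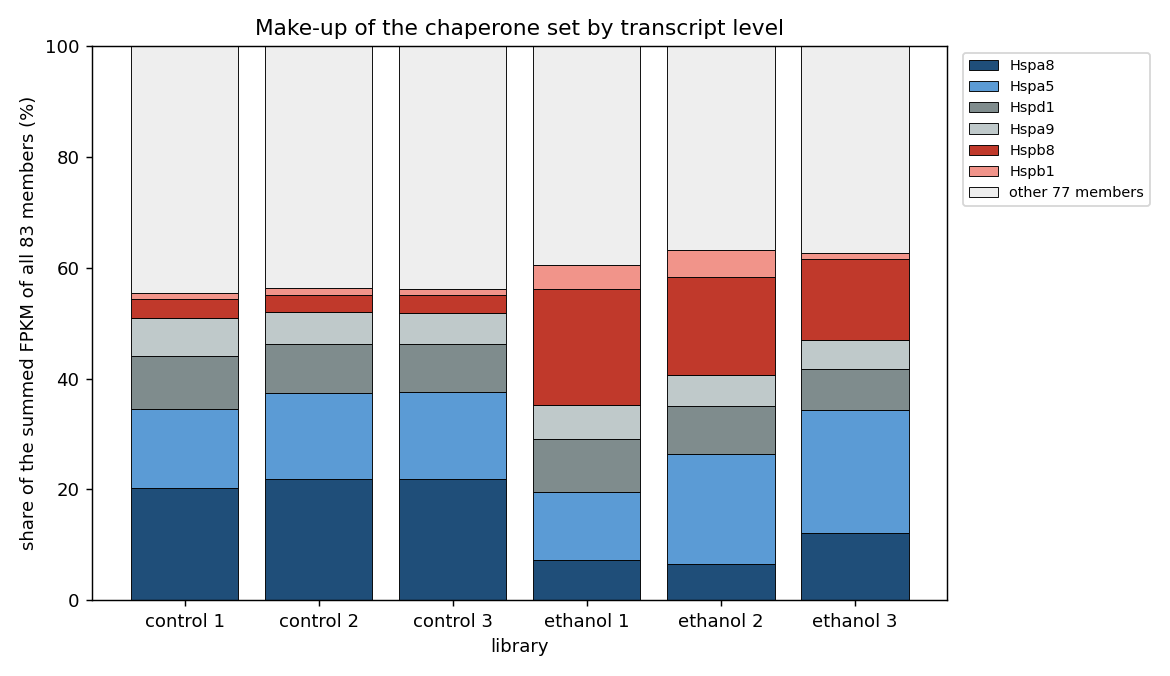
Share of the summed FPKM of all 83 members (y axis, %) taken by Hspa8, Hspa5, Hspd1, Hspa9, Hspb8 and Hspb1 and by the other 77 members together, as stacked bars for each control and ethanol library. The Hspb8 share is 14.6 to 20.9% in the ethanol libraries and at most 3.48% in the controls, and the Hspa8 share is 6.63 to 12.1% against 20.2 to 21.9%.

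The HSP90 system, which takes clients over from HSP70, was read from a separate list of 53 partner genes, of which 52 were tested. This list also held chaperonin partners, heat shock factors, mitochondrial quality proteases, exchange factors, and J proteins and small heat shock proteins under other names. In this list 2 rose (3.85%, against 10.4% of all genes tested) and 5 fell (9.62%, against 13.8%), and the median log2 fold change was -0.03. None of the 4 HSP90 genes was called: cytosolic Hsp90aa1 gave 0.15 ± 0.16 (edgeR adjusted p = 0.451) and Hsp90ab1 -0.20 ± 0.25 (0.54), ER-resident Hsp90b1 0.03 ± 0.14 (0.898) and mitochondrial Trap1 0.27 ± 0.11 (0.0869). Hsp90ab1 measured 503.5, 689 and 331 CPM in ethanol mice 1, 2 and 3 and 596, 603 and 548 CPM in the controls, so that ethanol mouse 2 lay above and ethanol mice 1 and 3 below all controls. Tcp1, the CCT subunit whose symbol lies outside the naming rule, gave 0.24 ± 0.10 (adjusted p = 0.0926) and was not called either.

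Among the HSP90 co-chaperones 2 of 18 rose and 2 fell (11.1% each, against 10.4 and 13.8% of all genes). Fkbp5, a glucocorticoid-inducible immunophilin of the HSP90 receptor complex, measured 101, 103.5 and 246 CPM in the ethanol mice and 9.05, 9.79 and 10.3 CPM in the controls (3.95 ± 0.38, edgeR adjusted p = 0.000423), the groups lying far apart and ethanol mouse 3 highest. Unc45a, the myosin chaperone, measured 47.1, 43.1 and 23.5 CPM against 12.1, 11.3 and 12.0 CPM (1.68 ± 0.25, adjusted p = 0.00215). Chordc1, a heat-inducible HSP90 co-chaperone, measured 9.02, 14.6 and 8.65 CPM against 34.3, 36.6 and 40.3 CPM and fell by 1.78 ± 0.22 (adjusted p = 0.00102). Stip1, the HOP adaptor that joins HSP70 to HSP90, measured 37.4, 62.2 and 22.4 CPM against 84.0, 82.3 and 81.2 CPM and fell by 1.02 ± 0.33 (adjusted p = 0.0404). The Stip1 call was lost without any single library other than ethanol mouse 2 (-0.72 to -1.04), through the adjusted p or the fold threshold.

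The partner genes that fell also included Hsf2, given above, and Pdcl. Pdcl, a phosducin-like partner of CCT, fell by 1.12 ± 0.21 (14.0 to 21.6 CPM in the controls, 6.87 to 10.2 CPM in the ethanol mice, adjusted p = 0.00579), and its call was lost without control mouse 3 (-0.97, adjusted p = 0.0286). None of the 6 mitochondrial quality proteases and none of the 4 exchange factors outside the set was called, in short lists. Of all genes tested 10.4% rose and 13.8% fell.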

How the data were processed

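Liver RNA of 3 ethanol and 3 control mice was sequenced as 150-base read pairs. The authors deposited 1 table with an integer read count per gene and library, not normalized, and an FPKM value beside each count, scaled by the authors to length and library total. The aligner, the counter and the use of strand are not given in the sources used here. The submitters' processing notes name GRCm38 and mm10, but the positions in the table overlapped the RefSeq GRCm38.p6 positions for only 13 of the 83 members, so the build of the table's coordinates is uncertain. Of the tested members 36 overlap another gene of the table and 13 do so on the same strand. Of the count columns, 1 matched no sample and was left out.

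Counts were filtered with filterByExpr, scaled by TMM and tested across all 16717 genes with edgeR 4.0.16 (quasi-likelihood, two-sided, Benjamini-Hochberg, with calls needing an adjusted p below 0.05 as well as a log2 fold change of more than 1 in size) in R 4.3.3. The common biological coefficient of variation was 0.299. The test was checked on simulated counts with a smaller variation and no shift in scaling between the groups, so that check does not fully cover these data. Alternatives were other scalings, other filters, DESeq2 1.42.0, limma 3.58.1 on log2(FPKM + 1) and log2(FPKM + 0.1), a replicate block and leaving out each library. The labels name separate mice, and same-numbered mice did not deviate together. Replicates differed beyond counting noise, with chi-square values of 49.6 to 496 for each degree of freedom. Standard errors were derived from edgeR's log2 fold change and quasi-likelihood F statistic, and SDs are over mice. The members and lists were chosen with earlier results of these data known. Within each family, genes were named if called (up to 6 per direction), if among the 2 with the highest mean FPKM, or if in the heat-inducible set. Partner genes were named if they encode HSP90 proteins, Hsf1 or Tcp1, or if called (up to 8). Cryab was added beside the small heat shock proteins. A result that this rule names is not reported here. Single-cell, human, metabolome and qPCR data were not analysed here.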

Additional observations from a re-analysis of the deposited data

How the results depend on the processing

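The 17 alternatives left 5 calls unchanged, those of Hspb8, Hspa14, Hspa1b, Dnajb2 and Dnajc22. Those of Dnajb1 and Dnajc28 were absent only under the FPKM minimum, which left both untested, and no alternative called any of the 16 members the opposite way. Against 7 members higher and 9 lower, the adjusted p alone gave 13 and 17, scaling by library total 4 and 18, limma on log2(FPKM + 0.1) 4 and 18, limma on log2(FPKM + 1) 2 higher, and a minimum mean FPKM of 5, which kept 37 members, 3 and 4. Against 2 partner genes higher and 5 lower, the adjusted p alone gave 8 and 9 and scaling by library total 15 lower. Limma on log2(FPKM + 0.1) gave 1 and 14, and on log2(FPKM + 1) 1 and 11. The FPKM minimum gave 1 higher, and removing the length trend 3 lower. The shares of all genes tested, higher and lower, were 21.5 and 21.5% at the adjusted p alone and 5.06 and 32.2% by library total. They were 4.4 and 29.7% with limma on log2(FPKM + 0.1) and 2.44 and 10.2% on log2(FPKM + 1). Under the FPKM minimum they were 9.91 and 10.2%, and with the length trend removed 11.4 and 11.5%. Leaving out 1 library gave 5 to 9 members higher and 6 to 9 lower, and 3 to 7 partner genes lower, the 3 without control mouse 3. The causes were not tested, apart from the fewer genes and members that the FPKM minimum leaves. With a replicate block 7 members were higher and 8 lower, Hspa12a being lost (-1.08, adjusted p = 0.0738), and 2 partner genes higher and 7 lower; same-numbered mice had correlations of -0.0349, -0.0211 and -0.0169, so that the numbers did not pair them. The sign of 13 uncalled values among the 45 named genes turned with scaling by library total, the values reaching -0.64. Under each limma setting 14 turned, reaching 0.66 in size, and across the 17 alternatives 18 of the 45 genes turned. The median standard error of the log2 fold change was 0.17 over the 77 tested members and 0.26 over all genes tested, with 3 mice per group. All comparisons rest on relative amounts, and no spike-in is described in the sources used here.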
